A study of Mus musculus with 4 samples.

Results

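The genes described here are 9 transcripts that mark eosinophils: Prg2, Prg3, Epx, Ear1, Ear2, Ear6, Ear10, Il5ra and Ccr3. They were chosen by name, with their levels in the comparison below already known, and all 9 were found among the 47643 genes of the table. RNA was sequenced from cells freed from the periosteum, the thin sheath over bone, of mouse femora and sorted by a red lineage label. TdTomato-positive cells were set against TdTomato-negative cells of the same double heterozygous animals. Each animal carried 1 allele of the Sox9CreErt2 driver (Sox9tm1(cre/ERT2)Haak) and 1 allele of the Td-Tomato reporter (Gt(ROSA)26Sortm14(CAG-tdTomato)Hze), so that cells using the Sox9 locus during tamoxifen exposure, and their progeny, became red. All had 3 intraperitoneal doses of 100 µL tamoxifen at 20 mg/mL in corn oil, 48 h apart, and were sampled 2 weeks after the last dose without a fracture. No age is stated in the labels. Diaphyses were digested for 2 h with 100 µg/mL liberase. About 10000 cells of either colour were pooled from 18 femora of 9 mice over 2 collections, which gave 2 libraries a group. The labels do not say which mice went into which collection. The negative gate took any released cell without the label, which can include blood-derived cells. Because mice were pooled and the libraries are called duplicates, p-values measure the spread between libraries, which may be technical, and not that between mice.

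Eosinophils are granulocytes that form in bone marrow under interleukin 5 and enter tissues along eotaxin gradients. Their granules store cationic proteins: major basic protein (Prg2), its homologue (Prg3), eosinophil peroxidase (Epx) and the eosinophil-associated ribonucleases (Ear genes), a family that has expanded in rodents. Il5ra encodes the interleukin 5 receptor alpha chain, and Ccr3 the receptor for eotaxins. Granule protein transcripts are made mostly in maturing eosinophils, while the receptors stay in use on mature ones.

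Each library is named here by group and depth, since no value carries a collection number. Depths implied by the values were 32.0 and 41.6 M reads for the shallower and the deeper positive library. For the shallower and the deeper negative library they were 17.0 and 74.0 M reads. Paired values are given in that order, shallower first, as RPKM, which here means reads per M reads of depth and per kilobase of genomic span, introns included. The 4 library values were solved from the authors' group means, maximum and log difference. The members Prg2, Prg3, Epx, Ear10, Il5ra and Ccr3 had settled values in both groups (6 of 9). For Ear1 and Ear6 in negative cells, and for Ear2 in both, which value belongs to which library was not settled, so both readings are given. Of 8 listed periosteal and skeletal markers, 2 had settled values in both groups, Sox9 and Ctsk. Sox9, the locus of the driver, was at 16.4 and 4.51 RPKM in positive cells and at 3.32 and 0.0244 RPKM in negative cells. Ctsk, a protease of bone cells, had 28.7 and 9.54 RPKM in positive and 5.72 and 0.152 RPKM in negative cells. The deeper negative library thus held almost none of either. The log2 ratio of positive to negative means, with 0.1 RPKM added, was above 0 for all 8. Both positive libraries were above both negative ones in 4 of the 8, beside 12.3% of genes with reads. Pdgfra was lower in positive cells by the authors' signed fold, at -1.31.

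The 4 Ear members lie on chromosome 14 in mm10, Ear1, Ear10 and Ear2 within 1 cluster and Ear6 7.75 Mb away. The opening 75 bases of their coding sequences, as long as 1 read of this study, are shown because they bear on how far the Ear values can be told apart. Sequences are from GENCODE M21 transcripts (GRCm38), and capitals mark bases that differ from Ear1.
Ear1: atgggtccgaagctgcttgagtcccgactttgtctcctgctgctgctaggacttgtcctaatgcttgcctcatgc
Ear2: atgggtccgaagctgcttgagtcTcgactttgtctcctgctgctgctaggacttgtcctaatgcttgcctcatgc
Ear10: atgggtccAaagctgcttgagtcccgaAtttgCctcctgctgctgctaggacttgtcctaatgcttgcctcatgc
Ear6: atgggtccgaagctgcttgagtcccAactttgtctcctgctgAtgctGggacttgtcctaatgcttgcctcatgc
In this stretch Ear2 differed from Ear1 at 1 base, and Ear10 and Ear6 at 3 bases each. Over the whole coding sequence Ear2 and Ear10 were 97.0% identical, Ear1 and Ear2 95.1%, Ear1 and Ear10 94.5%, and Ear6 between 87.4% and 87.7% identical to the other 3. Of all distinct 75-base stretches in the annotated transcripts of Ear1, 39.3% also occurred in a transcript of another gene. The share was 32.5% for Ear10 and 23.4% for Ear2. It was 0 for Ear6, Prg2, Prg3, Epx, Il5ra and Ccr3. The partners were Ear1, Ear2, Ear10 and the pseudogenes Ear-ps9 and Ear-ps2.

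The recovered read numbers separate the members partly along the same line, with Ear6 as the exception. A link between shared stretches and fractional reads was not tested. Prg2, Prg3, Epx, Il5ra and Ccr3 came out as whole reads in 4 of 4 libraries, within 0.01 reads plus a share of 1e-07 of the reads. Ear6 did so in 3 of 4 in the first of the readings given below. Ear10 did so in 2 of 4, both of them libraries with 0 reads, and Ear1 and Ear2 in 0 of 4. Over all 17176 genes with at least 10 reads in 2 or more libraries, 50.6% were whole in all 4. Ear1, Ear2 and Ear10 thus carry fractional reads, and their separate values are uncertain.

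In the authors' deposited table the group mean of every member was lower in positive than in negative cells. Because the members were chosen on this contrast, the following values are a description without a test. In bulk RNA, fewer eosinophils and less of a transcript per cell cannot be told apart. The authors' p-value was below 0.05 for 6 of the 9 members, as it was for 0.296% of all genes in the lower direction and 0.894% in either. Their step-up FDR was below 0.05 for 0 of the 9, and for 0.0% of all genes in that direction. The authors' p was also adjusted only over the 6860 genes at 1 RPKM or more in 2 libraries. Prg2 (adjusted p = 0.0245, Benjamini-Hochberg) and Epx (adjusted p = 0.0266) then fell below 0.05, against a deposited FDR of 0.170 and 0.185. These are 2 of the 9 members, beside 0.0583% of those genes in the lower direction. Epx reached 1 RPKM only in negative cells and both were picked on this contrast, so the adjustment is no test of them. Over either direction 3 genes (0.0063%) passed the FDR, and limma on the recovered values called 0 genes, with 768 of 6860 at an unadjusted p below 0.05. Both negative libraries lay above both positive ones, under every assignment left, in 8 of 9 members, beside 11.4% of the genes with reads and 13.2% of those with at least 10 reads in 2 libraries. Nothing is read from these shares, since the members were picked on this contrast.

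Prg2 (chr2:84980461-84983632, plus strand), the major basic protein of the granule core, had the most reads of the 9 in both negative libraries. It had 0.405 and 7.57 RPKM in the positive libraries, and TdTomato-negative libraries reached 164 and 103 RPKM. These rest on 41 and 999 reads in positive and 8844 and 24250 in negative cells. Both negative libraries stood far above both positive ones, and the deeper positive library held 18.7 times the level of the shallower. The log2 ratio of positive to negative means, with 0.1 RPKM added to each, was -5.03, and -8.05 without the deeper positive library.

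Prg3 (chr2:84988215-84993886, plus strand), the second major basic protein, starts 4.58 kb downstream of Prg2. Its level was 0 and 0.687 RPKM in positive cells and 3.83 and 2.32 RPKM in negative cells. The shallower positive library had 0 of its reads, which allows up to 0.0166 RPKM (3 reads), and the deeper one 162. Negative libraries held 369 and 972 reads. The log2 ratio was -2.84 over all libraries, -4.99 without the deeper positive library and -2.01 without the shallower.

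Epx (chr11:87864000-87875536, minus strand), the peroxidase that makes hypobromous acid, had a log2 ratio of -5.53. It was read at 0 and 0.275 RPKM in positive cells, on 0 and 132 reads. Negative cells had 13.3 and 8.38 RPKM, on 2604 and 7152 reads. As with Prg2 and Prg3, most positive reads came from the deeper library, and the groups did not overlap. Without that library the log2 ratio was -6.77.

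Prg2, Epx and Prg3 stood in another proportion in the deeper positive library than in the negative libraries, which were alike. Of the summed reads of the 3 genes, Prg3 made up 12.5% in the deeper positive library (95% exact Clopper-Pearson interval 10.8 to 14.5%), against 3.12% (2.82 to 3.45%) and 3.00% (2.82 to 3.19%) in the negative libraries. Epx made up 10.2% (8.61 to 12.0%) there, against 22.0% (21.3 to 22.8%) and 22.1% (21.6 to 22.5%) in the negative libraries. Prg2 made up 77.3% (74.9 to 79.5%), against 74.8% (74.0 to 75.6%) and 74.9% (74.4 to 75.4%) in the negative libraries. So the deeper positive library had 1.23 Prg3 reads per Epx read, where the negative libraries had 0.142 and 0.136. The shallower positive library had 41 reads of Prg2 and none of the others, which allows an upper exact bound of 8.6% for each. These intervals cover counting error only, since amplified reads without molecular identifiers are not independent molecules. A single positive library carries the contrast in proportions, so it has no replicate check.

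**Figure D1:**
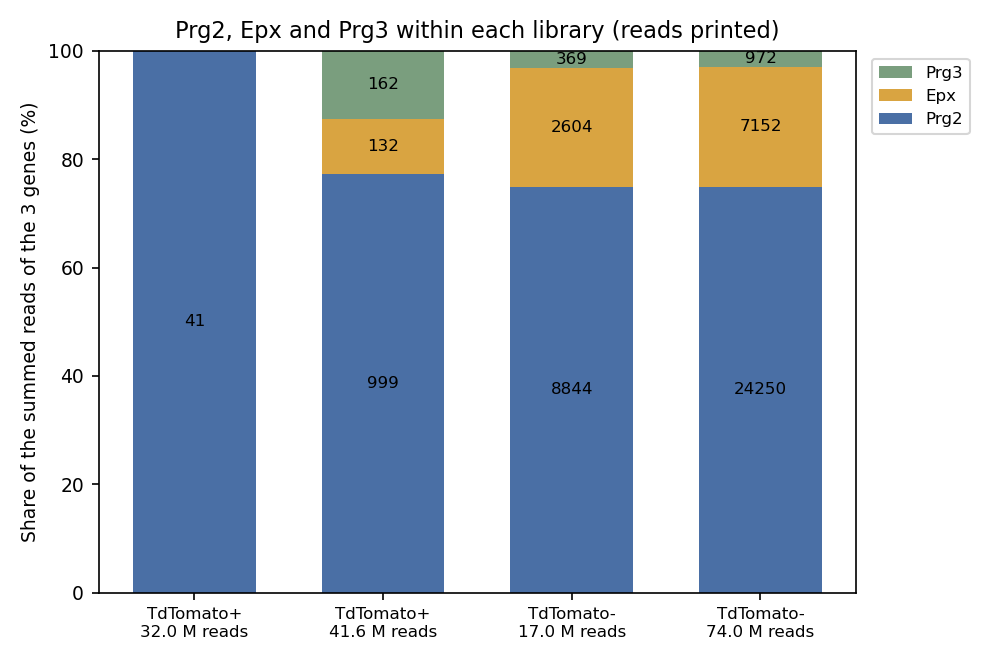
Share (%) of Prg2, Epx and Prg3 in their summed reads, 1 bar per library, positive libraries on the left, with the read numbers printed in the bars. Epx takes 22.0% and 22.1% in the negative libraries and 10.2% in the deeper positive one, where Prg3 takes 12.5%.

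Among the ribonucleases, the exons of the 2 annotated transcripts of Ear6 (chr14:51853699-51854643, plus strand) merge into 1 block. Ear6 was at 0.662 and 2.77 RPKM in positive cells, on 20 and 109 reads. In negative cells it was at 54.2 and 45.6 RPKM, or at 10.4 and 237 RPKM under the other assignment. The first reading gives 869.008 and 3186.99 reads, the other 166.443 and 16540.2. The first is close to whole reads, but the tolerance used left it unsettled. Under both, the negative libraries were above the positive ones. Its log2 ratio was -4.78, or -6.09 under the other assignment, and -6.03 without the deeper positive library.

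Ear1 (chr14:43818765-43875517, minus strand) had 2.04 and 6.05 reads in positive cells, or 0.00112 and 0.00256 RPKM. Negative cells had 1.19 and 1.26 RPKM, on 1149 and 5288 reads, or 0.212 and 5.54 RPKM under the other assignment. The low RPKM goes with its annotated span of 56753 bp, of which 1.29% is exonic, and the span takes in the pseudogene Ear-ps9. Ear-ps9 itself had 0 and 0 reads in positive cells and 9.11 and 44.3 reads, not settled between libraries, in negative cells. Ear1 and Ear6 thus kept the groups apart in every reading.

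Ear2 (chr14:44102654-44103534, plus strand), which some monocytes and macrophages also express, had a mean of 8.47 RPKM in positive cells. It was at 12.2 and 4.79 RPKM there, or at 3.66 and 15.9 RPKM under the other assignment. Negative cells had 63.5 and 61.4 RPKM, or 14.0 and 277 RPKM. The groups overlap only where the other assignment holds in both, with 15.9 RPKM in the deeper positive library above 14.0 RPKM in the shallower negative one. Its log2 ratio was -2.87, or -3.89 with the other assignments, and -2.35 and -3.68 without the deeper and without the shallower positive library.

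Ear10 (chr14:43922720-43923559, minus strand) was near the limit of detection. Positive cells had 0 reads of it in both libraries. Negative cells had 3.21 and 9.57 reads, or 0.225 and 0.154 RPKM. The negative mean was 1.92 times the level that 3 reads in each positive library would give. The 0.225 RPKM lies close to the 3-read level of its own library, 0.210 RPKM, so no least fold can be given. The part of sequence shared with Ear1 and Ear2 in its reads was not tested.

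The receptors had fewer reads than Prg2, Prg3 and Epx in negative cells, and each departed from their order across libraries in 1 group. Ccr3 (chr9:124021971-124031689, plus strand) was at 0.0998 and 0.0198 RPKM in positive cells, on 31 and 8 reads, and at 0.970 and 0.282 RPKM in negative cells, on 160 and 203 reads. Its level in the shallower positive library was 5.05 times that in the deeper, the opposite order to Prg2, Prg3 and Epx, while in negative cells the shallower library was the higher, as for those 3 genes. The log2 ratio was -2.18, and -1.26 without the shallower negative library. The groups did not overlap in Ccr3.

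Il5ra (chr6:106710357-106749037, minus strand) had 0 and 2 reads in positive cells and 1 and 336 in negative cells. Its levels were 0 and 0.00124 RPKM in positive cells and 0.00152 and 0.117 RPKM in negative cells, so the gap between the groups rests on 2 reads in the deeper positive library and 1 in the shallower negative one. Only the deeper negative library held more than a few reads, at 77.1 times the level of the shallower one, in which Prg2, Prg3 and Epx were higher. The log2 ratio was -0.66, and -0.01 without the deeper negative library. Its levels lie near or below the added 0.1 RPKM, which sets that value: the ratio was -6.58 with nothing added and -2.80 per exonic length.

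**Figure D2:**
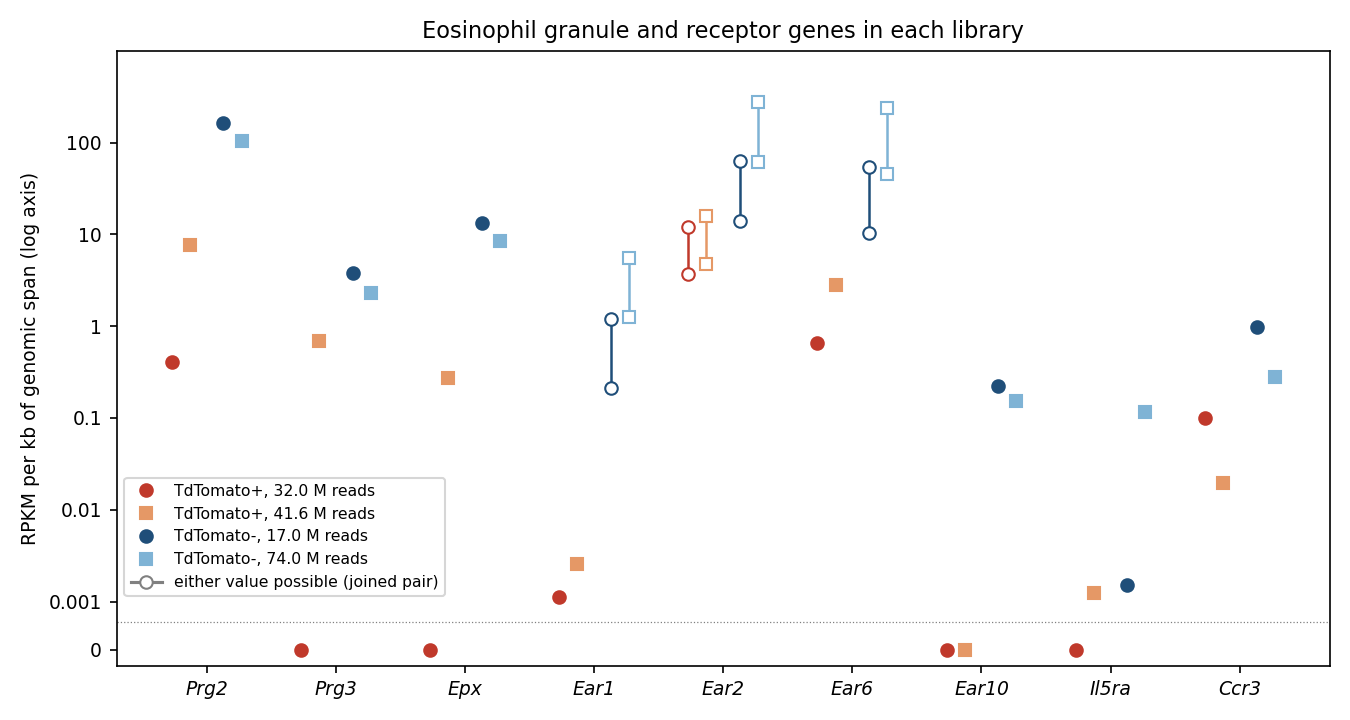
RPKM per kilobase of genomic span (log axis, values of 0 drawn below the dotted line) of the 9 members in each library, positive left of negative within a gene. Open joined marks show the readings of unsettled values, in which the libraries of a group trade their high and low value, so that 1 takes its upper mark while the other takes its lower mark. Prg2 reaches 164 and 103 RPKM in negative cells and at most 7.57 RPKM in positive cells.

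Levels can be set beside each other across members only per exonic length, since spans differ with introns. On reads per kilobase of exons (GENCODE M21) per M reads, negative cells had 622 and 391 of Prg2, 56.0 and 35.3 of Epx, and 22.9 and 13.8 of Prg3. For Ear1 the values were 92.8 and 97.9, or 16.5 and 430 under the other assignment, and for Ear2 77.8 and 75.2, or 17.2 and 340. The merged exons of Ear6 cover its whole span, so it keeps the values above, with any intron of a single transcript counted as exon. Ccr3 had 2.88 and 0.838, Il5ra 0.0165 and 1.27, and Ear10 0.279 and 0.191. Prg2 came first in the shallower negative library under either assignment. In the deeper one, the other assignment put Ear1 above its 391. Ear1, Ear2, Ear6 and Epx could not be ordered, because their ranges overlap, and Prg3 came after Epx in both libraries. On this scale positive cells had 1.53 and 28.7 of Prg2 and 0 and 1.16 of Epx.

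The negative libraries were closer to each other in Prg2, Prg3 and Epx than in the receptors. The level in the shallower over that in the deeper was 1.59 for Prg2, 1.66 for Prg3 and 1.59 for Epx. It was 3.44 for Ccr3 and 0.0130 for Il5ra. For Ear1, Ear2 and Ear6 it depends on the assignment. Marker sums of other leukocytes were set beside the members. Summed over the markers with settled values, the 6 eosinophil members were at 0.504 and 8.55 RPKM in positive cells and at 183 and 115 RPKM in negative cells. Markers of mast cells and basophils (9 of 10) were at 4.08 and 68.8 RPKM in positive and 202 and 108 RPKM in negative cells. The deeper positive library was above the shallower in both sums, but each sum is mostly 1 gene. Prg2 gave 7.57 of the 8.55 RPKM in the deeper positive library. Prss34, a basophil protease, gave 63.7 of the 68.8 RPKM there. Both sums kept the groups apart. Of the 10 mast cell and basophil genes, 7 had both negative libraries above both positive ones, beside 11.4% of genes with reads. The authors' p was below 0.05 in the lower direction for 6 of the 10, beside 0.296% of all genes. Neutrophil markers (6 of 12) were at 868 and 5022 RPKM in positive and 3238 and 7922 RPKM in negative cells. The deeper positive library thus lay above a negative one, and the deeper negative library was the higher of its group, unlike in the eosinophil sum. Taken singly, 3 of the 12 (Mmp8, Cxcr2 and Retnlg) had both negative libraries above both positive ones, beside 11.4% of genes with reads. Mmp8 was at 3.86 and 14.8 RPKM in positive and 65.4 and 154 RPKM in negative cells. The sum of macrophage and monocyte markers (5 of 10) was higher in positive cells, at 79.0 and 163 RPKM against 47.3 and 0.908 RPKM in negative cells. C1qa and C1qb gave 43.8 and 34.4 of the 79.0 RPKM in the shallower positive library. Csf1r, Ly6c2 and Ccr2, left out as not settled, had log2 ratios of -0.10, -0.94 and -1.02. The other 7 listed genes had ratios above 0. Of the settled eosinophil members, 4 were at 0 reads in the shallower positive library and 1 in the deeper. The part of other leukocytes in the values of the members was not tested.

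**Figure D3:**
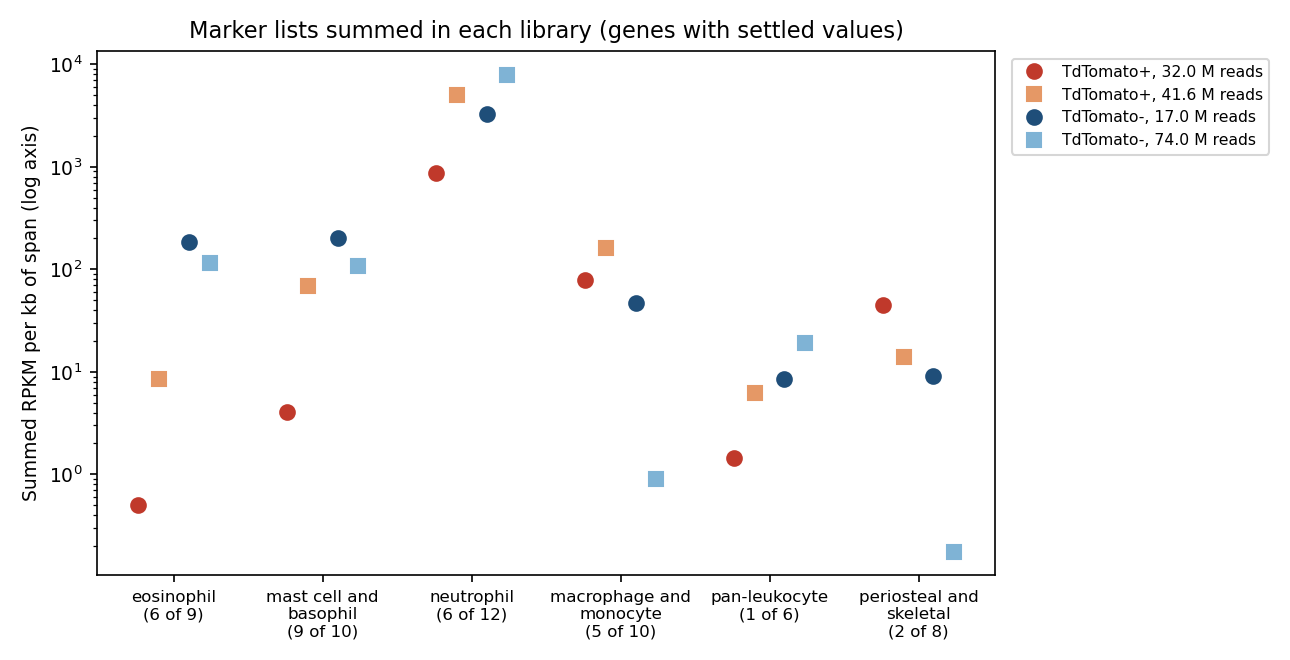
Summed RPKM (log axis) of marker lists in each library, positive left of negative, with the number of genes that had settled values out of those listed. The eosinophil sum separates the groups (8.55 RPKM at most in positive against 115 RPKM at least in negative cells). So do the mast cell and basophil sum (68.8 against 108 RPKM) and Cd53, the 1 settled pan-leukocyte marker (6.18 against 8.47 RPKM). The neutrophil sum does not. Taken singly, the neutrophil genes Mmp8, Cxcr2 and Retnlg, 3 of the 12 listed, have both negative libraries above both positive ones, beside 11.4% of genes with reads.

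The genes closest in pattern to the mean profile of the 6 settled members were ranked by Euclidean distance of centred log2(RPKM + 0.1) across the 4 libraries. Only the 3198 genes with settled values in both groups and a negative mean of at least 1 RPKM were ranked. That filter uses the group in which the members are high, so the ranking is a description of those genes only. Ear10, Il5ra and Ccr3, at negative means of 0.189, 0.0594 and 0.626 RPKM, are in the profile but lie below that level. The nearest were Mcpt8, a basophil protease, at 0.436 and Cpa3, a carboxypeptidase of mast cells and basophils, at 0.476. Mcpt8 was at 1.18 and 4.45 RPKM in positive cells and at 26.6 and 15.5 RPKM in negative cells. Cpa3 was at 0 and 0.0805 RPKM in positive and 1.76 and 0.906 RPKM in negative cells. Igkv3-2, Tarm1, Gm16575, Il1f9, Trim30b and Fpr1 followed, at 0.548 to 0.928. The members themselves lay 1.18 (Prg3) to 3.36 (Prg2) from their own mean, so the profile averages unlike genes.

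Of other genes used by eosinophils, the lists below were described by counts, beside 0.296% of all genes lower and 0.598% higher at the authors' p below 0.05, and a median log2 ratio of 0.01 over the 26591 genes with reads. No gene of these lists passed the FDR, 0 in each. The surface and lipid mediator list had a median log2 ratio of -0.60 over 10 genes, 6 of them below 0. Alox15, the lipoxygenase of mouse eosinophils and macrophages, was the 1 with a p below 0.05 (p = 0.000165 in the authors' deposited table). It was at 0 and 0.415 RPKM in positive cells and at 9.96 and 8.54 RPKM in negative cells, on 0 and 136 reads in positive and 1332 and 4979 in negative cells. Siglecf, the inhibitory lectin used to sort mouse eosinophils, was at 0 and 0.367 RPKM in positive and 1.00 and 0.957 RPKM in negative cells. Both genes had 0 reads in the shallower positive library, as Prg3 and Epx did, and in neither did the groups overlap. Both negative libraries were above both positive ones in 5 of the 10 listed genes, beside 11.4% of genes with reads. The reverse held in 1, beside 12.3%. That was Ltc4s, at 1.65 and 2.76 RPKM in positive and 0.631 and 0.176 RPKM in negative cells.

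Eotaxins are the ligands that draw eosinophils through Ccr3. Among 10 CCR3 ligands and adhesion genes, 3 had a p below 0.05 in the higher direction and 1 in the lower, and the median log2 ratio was -1.15. Ccl11 (eotaxin 1) was at 35.3 and 3.95 RPKM in positive cells and at 18.5 and 0.00527 RPKM in negative cells, so that the groups overlapped. Ccl24 (eotaxin 2) was at 0.583 and 1.14 RPKM in positive and 0 and 0.0434 RPKM in negative cells. Ccl7, another CCR3 ligand, was at 57.6 and 118 RPKM in positive and 34.0 and 0.827 RPKM in negative cells. The p of Ccl11 was 0.0352, that of Ccl24 0.0422 and that of Ccl7 0.0105 in the authors' deposited table. Itgam, the integrin alpha M chain of myeloid cells, had a signed fold of -6.44 and p = 0.0334 in the authors' deposited table.

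The interleukin 5 family list had 0 of 12 genes with a p below 0.05 and a median log2 ratio of -0.89. Il5 itself had 0 and 654 reads in positive cells and 20 and 88 in negative cells, which is 0 and 3.64 RPKM in positive and 0.273 and 0.276 RPKM in negative cells. All its positive reads came from the deeper library. Csf2ra, the GM-CSF receptor alpha chain, was at 8.69 and 36.3 RPKM in positive and 33.6 and 50.2 RPKM in negative cells. Csf2rb, the chain that Il5ra pairs with, had a signed fold of -3.89 in the authors' deposited table, with unsettled libraries. Of 12 lineage transcription factors 0 had a p below 0.05 and the median was -0.56. Cebpb, Id2 and Xbp1, named for a high RPKM per span, had signed folds of -1.58, 1.67 and -1.10 in the authors' deposited table. Gata2 was at 0.369 and 0.591 RPKM in positive and 2.79 and 1.65 RPKM in negative cells, and Cebpe, needed for granule genes, at 7.39 and 27.6 RPKM in positive and 30.5 and 29.7 RPKM in negative cells. Gata1, the factor most tied to the eosinophil lineage, overlapped between groups at 0.0166 and 1.29 RPKM in positive and 0.426 and 1.11 RPKM in negative cells.

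The wider ribonuclease A family was looked at beside the Ear genes. Of 12 listed 7 were in the table and 6 had reads, with a median log2 ratio of 1.31 and 0 genes at a p below 0.05. Rnase2a had 0 and 72 reads in positive cells and 0 and 50 in negative cells. Rnase6 was at 0.944 and 7.35 RPKM in positive and 6.68 and 11.8 RPKM in negative cells, overlapping. Rnase4, broadly expressed, had a signed fold of 1.49 in the authors' deposited table, with unsettled libraries. Type 2 cytokines had a median log2 ratio of 0.08 and 0 genes at a p below 0.05, with Il4 at 0.0180 and 0.205 RPKM in positive and 0.0901 and 0.118 RPKM in negative cells. Il33 and Tslp had signed folds of -1.51 and -1.15 in the authors' deposited table. Granule packaging genes had a median of 0.42 and 0 such genes. Cd63, Serpinb1a and Srgn, named for a high RPKM per span, had signed folds of 2.00, -1.57 and -1.72 in the authors' deposited table. In each of Rnase2a, Il4 and Il5 the deeper positive library was the highest of the 4.

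**Figure D4:**
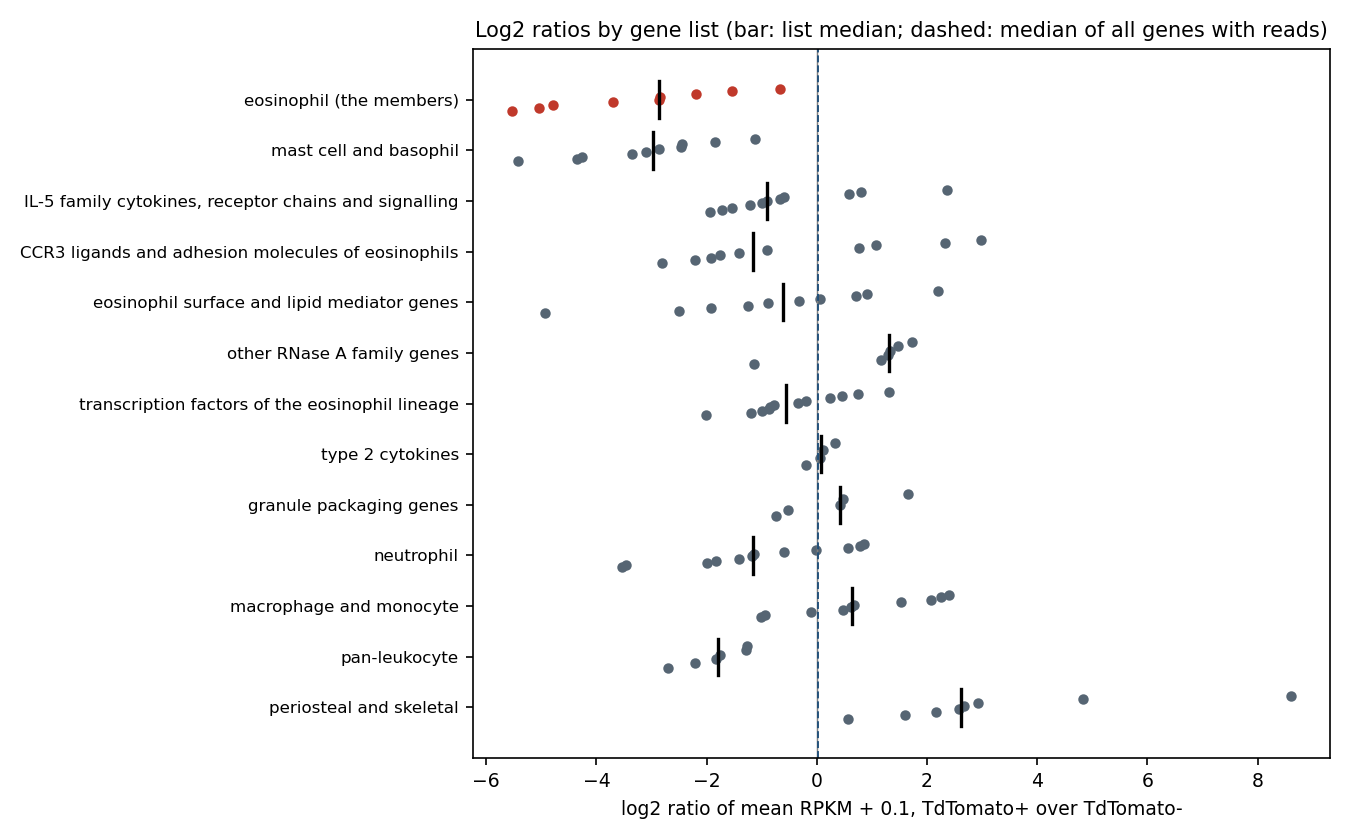
Log2 ratio of mean RPKM + 0.1, positive over negative (horizontal axis), for each gene with reads in the lists, with the list median as a black bar and the median of all genes with reads, 0.01, as a dashed line. The 9 members run from -5.53 to -0.66, and the mast cell and basophil list has a median of -2.98.

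RefSeq promoters (GRCm38.p6) were at hand for 8 of the 9 members and were searched over the 250 bases before the start, on both strands, for GATAA, the core of GATA sites. It was present in 3 of 8, Prg3, Il5ra and Ccr3, and in 22.6% of 32851 promoters of that length. These 3 are shown because they hold it, and no link between the motif and the levels was tested. Capitals mark GATAA or its reverse complement.
Prg3 (chr2:84987965-84988214, plus strand): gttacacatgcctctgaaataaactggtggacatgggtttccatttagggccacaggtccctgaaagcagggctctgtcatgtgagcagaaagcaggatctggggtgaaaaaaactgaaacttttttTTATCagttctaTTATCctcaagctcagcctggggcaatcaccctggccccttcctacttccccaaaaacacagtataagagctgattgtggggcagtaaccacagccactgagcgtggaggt
Il5ra (chr6:106749038-106749287, minus strand): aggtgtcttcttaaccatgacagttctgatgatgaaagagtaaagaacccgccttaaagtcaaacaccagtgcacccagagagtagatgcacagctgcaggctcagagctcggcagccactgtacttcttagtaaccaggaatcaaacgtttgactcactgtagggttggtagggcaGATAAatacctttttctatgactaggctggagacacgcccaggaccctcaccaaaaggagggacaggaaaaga
Ccr3 (chr9:124021721-124021970, plus strand): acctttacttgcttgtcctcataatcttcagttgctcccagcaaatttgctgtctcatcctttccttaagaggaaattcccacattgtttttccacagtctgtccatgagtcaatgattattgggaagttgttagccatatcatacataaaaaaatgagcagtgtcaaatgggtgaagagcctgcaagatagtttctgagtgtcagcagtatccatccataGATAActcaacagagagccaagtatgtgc
In Prg3 the motif occurred 2 times, on the strand opposite to the gene. TTNNGNAA, a loose C/EBP pattern, was in 6 of 8, against 36.8% of all, and GAGGAA, a PU.1 core, in 1 of 8, against 23.3% of all. The 6 include all 4 Ear promoters, which are related copies and not separate instances: Ear1 and Ear2 were 97.6% identical over this window. A match is a stretch of letters and shows no binding.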

How the data were processed

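Low-input cDNA libraries were read as 75 nt paired ends. The submitters' processing notes name mm10, the aligner STAR and Partek, without versions. The 1 table used holds the authors' comparison. Per the file headers it gives group means of a normalized signal, a maximum and sums that are a score here because they are fractional, a natural log difference, a ratio, a signed fold as a score, and a p-value of a shrunken lognormal fit with its step-up FDR. Library values were solved from 4 of these deposited columns, with 1 solution for each of 47643 genes. They matched RPKM plus an offset of 0.1, divided again by depth and span, a scale inferred from the values. The authors' Akaike criterion, not used in solving, ran from -88.7 to 73.3 and stayed within 24.5 to 25.8 once 2 times the summed natural logs was subtracted. Values went to the library that gave whole reads or no negative ones, which settled 68.1% of 17176 genes. On simulated whole reads for this comparison (17174 genes) 100.0% were settled, all rightly, and on fractional reads (17201 genes) 16.8%, of which 98.7% rightly. The end coordinate is 1 base before the table's Stop. The members and lists were chosen with earlier results of these data known, and the named genes follow a rule: all members, list genes with p below 0.05 or else high levels, and the 8 nearest in pattern. Others (Siglecf, Gata1, Gata2, Cebpe, Il5, Mcpt4, Ltc4s, Retnlg, Csf1r, Ly6c2, Ccr2, Pdgfra) were named outside the rule, after their values were seen. Some genes that the rule allows, such as Ms4a2, are not named in the results. The planned count test was replaced by the authors' p because the columns used hold no counts per library. Limma 3.58.1 (R 4.3.3) on log2(RPKM + 1), for genes with at least 1 RPKM in 2 libraries, was an alternative. Tables used Python 3.11.15, pandas 2.3.3, scipy 1.17.1 and Biopython 1.88. Alternatives covered pseudocounts, means, filters, scaling, length, left-out libraries and pairing.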

Additional observations from a re-analysis of the deposited data

How the results depend on the processing

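All 9 members stayed lower in positive cells in each alternative that kept them all. Their median log2 ratio was -2.87, and -3.71 to -2.84 with 1 library left out, with -3.71 without the deeper positive library. It was -1.60 with a pseudocount of 1, -4.96 with none (8 members), -4.24 over the 6 members with at least 1 RPKM in the higher group, and -3.89 with the other assignment, an alternative added after seeing the data. Scaled to Cd53, the 1 pan-leukocyte marker of 6 with settled values, the median log2 ratio was -2.155. On that scale Ear2 had a log2 ratio of -0.22, Il5ra of -0.34 and Ccr3 of -0.68. Over all genes the authors' FDR called 3. Adjusting their p over genes with at least 1 RPKM in 2 libraries called 15, Prg2 and Epx among them, and an unadjusted p below 0.05 called 426. Limma called 0 genes with the filter, without it, with a pseudocount of 0.1, on settled genes alone, and with 1 library left out (0 to 0), where the lone library is assumed to vary like the others. The values carry no collection number, so both possible pairings were fitted as a replicate block on 3328 settled genes. Each called 0, with 914 and 72 genes at an unadjusted p below 0.05. A comparison of TMM with other size factors was not run, since the columns used hold no counts. Depth limits Ear10, with under 10 reads in all 4 libraries, and Il5ra, with under 10 in 3.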

Other observations

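The mast cell proteases Tpsb2, Mcpt4 and Cma1 were mostly in the shallower negative library, whereas Mcpt8, at 26.6 and 15.5 RPKM, and Cpa3, at 1.76 and 0.906 RPKM, were in both. Tpsb2, a tryptase, had 0 and 4 reads in positive cells and 286 and 12 in negative cells. Mcpt4 had 0 and 3 reads in positive and 194 and 1 in negative cells. Cma1 had 0 and 3 reads in positive and 209 and 50 in negative cells. In RPKM these were 10.9 and 0.105 for Tpsb2 in negative cells, where Epx was at 13.3 and 8.38. Prss34, a basophil protease, was at 2.78 and 63.7 RPKM in positive cells and at 152 and 88.7 RPKM in negative cells.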
